A study of Homo sapiens with 4 samples.

Results

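The 10 serpin genes SERPINB1, SERPINB2, SERPINB3, SERPINB4, SERPINB5, SERPINB7, SERPINB8, SERPINB13, SERPINF1 and SERPINE2 were taken by symbol from a table of 25369 genes, and all 10 were present. They were measured by sequencing of polyadenylated RNA in H226, an established cell line from a human squamous carcinoma of the lung. The cells held a doxycycline-inducible hairpin, non-targeting in the 2 shControl replicates and directed at p63 in the 2 shp63 replicates. All 4 replicates, controls included, had 1 µg/mL doxycycline for 6 days. The labels name 1 construct per group, so that an effect of the p63 hairpin sequence itself and of losing p63 cannot be told apart. The genes were chosen by family and by their measured levels in shp63 against shControl, so their values in that comparison are given as a description, without p-values.

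Serpins are protease inhibitors that offer an exposed loop to a serine or cysteine protease, change shape once it is cut and trap the enzyme. Those of clade B lack a classical secretion signal and act mostly inside the cell, and many of them are made by stratified squamous epithelium, where a cluster of their genes lies on the long arm of chromosome 18. Clade E and clade F serpins are secreted, and some serpins, among them SERPINB5 and SERPINF1, do not inhibit proteases. p63, the transcription factor encoded by TP63, maintains the basal layer of such epithelia.

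Library totals were 51926832 to 53924761 counted reads. TP63, the targeted gene, had 7533 and 7364 reads in shControl against 1596 and 1530 in shp63. All 10 serpins passed the filter on low counts, which 14901 genes passed. Of the 10, 6 were called lower and 3 higher in shp63 at an adjusted p under 0.05 (edgeR), where 37.1% of all tested genes were called lower, 36.9% higher and 74.0% in either direction. In 10 of 10 every shp63 library lay on 1 side of both controls, which was so in 86.4% of all tested genes. In a test against a 1.5-fold change 7 of the 10 were called, and 22.7% of all tested genes were. The median log2 fold change was -0.33 over the 10 serpins and -0.01 over all tested genes. With 2 libraries a group, an exact two-sided permutation test of 1 gene cannot give a p under 0.333, and calls rest on a spread shared across genes. The RNA came from whole cultures, so fewer cells of a kind and less RNA per cell cannot be told apart.

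**Figure D1:**
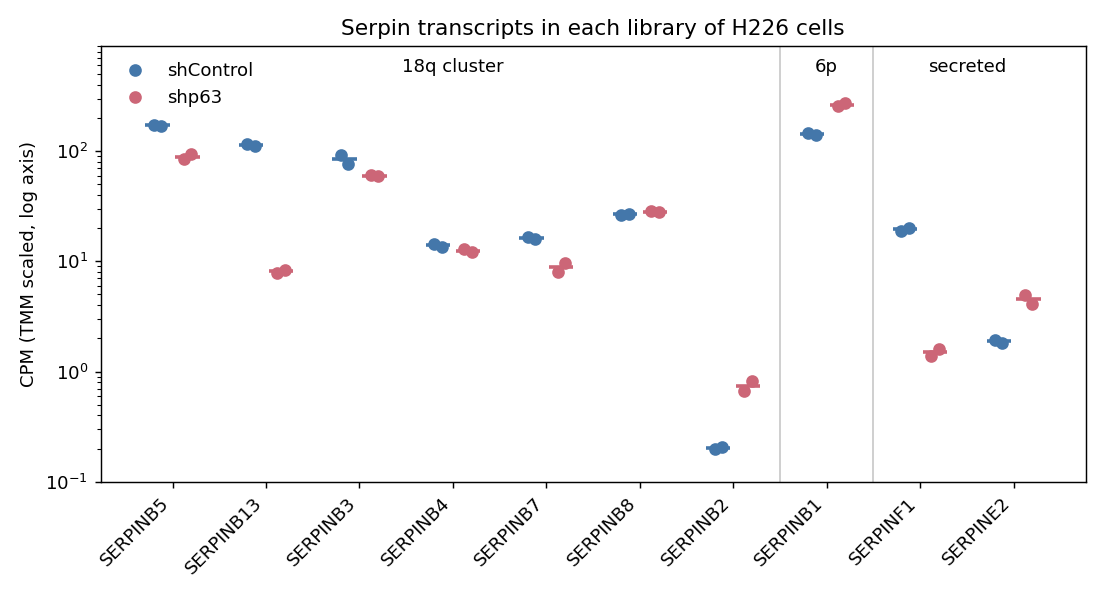
Level of the 10 serpin transcripts in each library, in CPM (counts scaled to library size with TMM factors) on a log axis, for shControl (blue) and shp63 (red), with 1 point per library and a bar at the mean of 2 libraries. SERPINB13 and SERPINF1 stand lowest relative to shControl, and SERPINB2, SERPINE2 and SERPINB1 stand above it.

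SERPINB13, also called headpin or hurpin, is a squamous epithelial inhibitor of cathepsins L and K. The gene occupies positions 61254223 to 61271873 of chromosome 18, plus strand (GRCh37). Its read counts were 6484 and 5966 in shControl against 409 and 420 in shp63. Scaled to library size (CPM) these were 117 and 111 against 7.86 and 8.38, so that each control library was far above both knockdown libraries. The level was 14.0-fold lower in shp63, a log2 fold change of -3.81 (SE 0.053, 95% interval -3.92 to -3.70), which placed it in the lowest 0.121% of tested genes.

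SERPINB5, or maspin, is an epithelial serpin without protease-inhibiting activity that is known as a tumour suppressor. The gene, at positions 61144191 to 61172318 of the same strand, opens the cluster, 110 kb before SERPINB13. Its levels were 172 and 170 CPM in shControl and 84.4 and 93.8 CPM in shp63. The groups did not overlap, and the spread of the shp63 libraries (SD 6.66 CPM) was larger than that of the controls (SD 0.916 CPM). The level was 1.92-fold lower, a log2 fold change of -0.94 (SE 0.040, 95% interval -1.03 to -0.86).

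The 5′ regions of these genes of the cluster are shown because both were lower in shp63 while differing in base composition. Each window runs from 250 bases before to 50 after an annotated RefSeq start, taken from the promoter table of GRCh38.p14 and placed on GRCh37 by an exact and unique match. The windows are chr18:61254327-61254626 for SERPINB13 and chr18:61143941-61144240 for SERPINB5, both on the plus strand. Capitals mark matches to TGANTCA, the AP-1 motif taken here with any base at N, and to GGGCGG, the GC box. The TGANTCA match has A at N in SERPINB5 and C at N in SERPINB13.
SERPINB13: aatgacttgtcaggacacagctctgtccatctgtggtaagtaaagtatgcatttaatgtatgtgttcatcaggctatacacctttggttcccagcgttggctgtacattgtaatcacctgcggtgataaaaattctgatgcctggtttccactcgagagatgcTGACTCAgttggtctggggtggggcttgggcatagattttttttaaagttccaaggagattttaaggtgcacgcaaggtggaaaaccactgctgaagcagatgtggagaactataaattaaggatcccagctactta
SERPINB5: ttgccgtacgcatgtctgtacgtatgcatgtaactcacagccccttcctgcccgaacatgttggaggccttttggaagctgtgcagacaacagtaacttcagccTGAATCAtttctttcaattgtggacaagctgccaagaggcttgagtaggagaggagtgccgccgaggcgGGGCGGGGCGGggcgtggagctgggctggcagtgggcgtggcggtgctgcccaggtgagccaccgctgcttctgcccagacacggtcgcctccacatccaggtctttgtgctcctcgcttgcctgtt
The SERPINB13 window was 43.7% G and C with 1 AP-1 match, which starts at -87 from the start site. The SERPINB5 window was 59.7% G and C, with 1 AP-1 match from -146 and 2 GC box matches that share 1 base. The median over 34796 distinct promoter windows was 58.7%.

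Windows were found in that table for 9 of the 10 serpins (all but SERPINF1), 12 windows in all, since SERPINB7 has 3 and SERPINE2 has 2. TGANTCA was found, on either strand, in 6 of the 12 windows, belonging to SERPINB2, SERPINB5, SERPINB7, SERPINB8 and SERPINB13, and in 7.73% of all windows of this length. These 5 genes include 3 that were lower in shp63, 1 that was higher and 1 that was not called. GGGCGG was found in 4 windows, of SERPINB5, SERPINB1 and SERPINE2, and in 44.9% of all windows. The p53 family decamer consensus, the 10-base element that p53 and p63 share, was found in 0 of the 12 windows and in 6.65% of all windows. Only full matches to all 10 letters were counted. A near match was thus left out, such as gaacatgttg in the SERPINB5 window, which departs from the consensus in its last letter. A match is a match of letters only, and 300 bases around a start leave out most regulatory sequence.

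SERPINB3 and SERPINB4 encode the squamous cell carcinoma antigens, of which the first is known to inhibit cathepsins L, S and K and the second cathepsin G and chymase. They are tandem copies on the minus strand of chromosome 18, SERPINB4 from 61304493 to 61311490 and SERPINB3 from 61322431 to 61329127 (GRCh37). SERPINB3 had 5110 and 4110 reads in shControl and 3149 and 2964 in shp63. As CPM these were 92.2 and 76.5 against 60.5 and 59.1, with no overlap but a wide gap between the controls. That gap was 0.27 on the log2 scale, against a counting error of 0.030. SERPINB3 was 1.41-fold lower in shp63, with a log2 fold change of -0.50 (SE 0.083). Its call was lost without shp63 replicate 1 (log2 fold change -0.51) or without shp63 replicate 2 (-0.48), and its value was -0.36 without shControl replicate 1 and -0.63 without shControl replicate 2.

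SERPINB4 had 799 and 726 reads in shControl and 670 and 604 in shp63, or 14.4 and 13.5 CPM against 12.9 and 12.05 CPM. Its log2 fold change was -0.16 (SE 0.066, 95% interval -0.30 to -0.03), the smallest difference among the 9 called serpins. DESeq2 did not call it (log2 fold change -0.16), nor did edgeR without shControl replicate 1 (-0.12) or without shp63 replicate 2 (-0.12). The copies are so alike that reads cannot always be assigned. Of the 50-base windows of either main transcript, 24.9% occur in the other one, and 3.54% of the 100-base windows do. None of the other 8 transcripts shares such a window with another of the 10. How the authors' counting treated shared reads was not given in the sources used here. Summed into 1 gene, the copies had 5909 and 4836 reads in shControl and 3819 and 3568 in shp63, with a log2 fold change of -0.44 (SE 0.069). SERPINB3 made up 86.5% and 85.0% of these reads in shControl and 82.5% and 83.1% in shp63. The exact (Clopper-Pearson) 95% intervals, which cover counting error only, were 85.6% to 87.3% and 83.9% to 86.0% in shControl and 81.2% to 83.7% and 81.8% to 84.3% in shp63, and of the 4 pairs of a control and a knockdown library 3 did not overlap.

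The 5′ windows of the copies are shown for their likeness, at chr18:61329078-61329377 for SERPINB3 and chr18:61311441-61311740 for SERPINB4, both on the minus strand (GRCh37; sequence from the RefSeq table of GRCh38.p14). Capitals mark the bases that differ between them.
SERPINB3: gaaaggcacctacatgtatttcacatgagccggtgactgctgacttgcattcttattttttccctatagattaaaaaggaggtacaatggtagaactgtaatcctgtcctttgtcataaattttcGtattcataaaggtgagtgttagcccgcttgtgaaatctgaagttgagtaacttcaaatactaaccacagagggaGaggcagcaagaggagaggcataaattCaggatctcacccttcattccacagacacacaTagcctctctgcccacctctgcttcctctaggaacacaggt
SERPINB4: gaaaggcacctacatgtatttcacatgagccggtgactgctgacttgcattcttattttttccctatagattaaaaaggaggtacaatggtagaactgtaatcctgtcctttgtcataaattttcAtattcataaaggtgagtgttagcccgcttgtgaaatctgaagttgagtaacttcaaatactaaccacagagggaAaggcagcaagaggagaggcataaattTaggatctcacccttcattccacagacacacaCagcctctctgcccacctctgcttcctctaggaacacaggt
They were identical at 296 of 300 positions. The 4 differences were G126A, G201A, C228T and T260C, with the SERPINB3 base first and positions counted from 1 at the 5′ end of the window. The main transcripts are both 1707 bases long, so the read ratio is also a ratio per length. SERPINB3 had 6.40 and 5.66 reads for each SERPINB4 read in shControl, and 4.70 and 4.91 in shp63.

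SERPINB7, or megsin, is a keratinocyte serpin whose loss causes a recessive palmoplantar keratoderma. It had 929 and 863 reads in shControl and 417 and 481 in shp63, or 16.8 and 16.1 CPM against 8.02 and 9.59 CPM. Both shp63 libraries were below both controls, at a 1.87-fold lower mean level (log2 fold change -0.90, SE 0.075). The difference is close in size to that of SERPINB5, whose 95% interval of -1.03 to -0.86 lies within that of SERPINB7, -1.06 to -0.74.

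SERPINB8, an intracellular serpin that inhibits furin, had 1473 and 1458 reads in shControl and 1477 and 1398 in shp63. Its levels were 26.6 and 27.1 CPM against 28.4 and 27.9 CPM, a gap between the groups of under 1 CPM. The log2 fold change of 0.07 (SE 0.047) was not called, with a 95% interval of -0.03 to 0.16. Scaled by library totals alone its direction turned (log2 fold change -0.02).

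SERPINB2, the intracellular and secreted inhibitor of the plasminogen activators PLAU and PLAT, was the member of the chromosome 18 cluster that was higher in shp63. It was scarce in every library, with 11 and 11 reads in shControl and 35 and 41 in shp63. These were 0.198 and 0.205 CPM against 0.673 and 0.818 CPM, so the groups did not overlap although 1 read moves each value by several percent. The level was 3.66-fold higher, a log2 fold change of 1.87 (SE 0.32, 95% interval 1.21 to 2.54). A filter of 1 CPM in 2 libraries leaves it out.

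The cluster spans 543 kb from the start of SERPINB5 to the end of SERPINB8 (chromosome 18 from 61144191 to 61687013, GRCh37). In gene order, SERPINB5, SERPINB13, SERPINB4, SERPINB3 and SERPINB7 were lower, SERPINB2 was higher and SERPINB8 was not called. The remaining serpins inside it were near silent and not tested, with 1 to 8 reads per library for SERPINB12, 2 to 12 for SERPINB10 and 0 or 1 for SERPINB11. HMSD, which follows SERPINB10 in gene order, had 0 reads in all 4 libraries. The summed level of the 7 measured cluster serpins was 439 and 415 CPM in shControl and 203 and 212 CPM in shp63, a ratio of 0.486. Of the 5 genes listed before SERPINB5, outside the cluster, 3 were not called, 1 rose and 1 fell. VPS4B was at 102 ± 1.13 and 98.8 ± 0.414 CPM and ZCCHC2 at 39.3 ± 1.09 and 38.1 ± 0.163 CPM (SD, n = 2 each), neither called, with log2 fold changes of -0.05 and -0.04 (edgeR adjusted p 0.182 and 0.318). KDSR rose 1.11-fold (log2 fold change 0.15, adjusted p 0.0011, edgeR). PHLPP1 had a log2 fold change of -0.01 (adjusted p 0.884, edgeR). BCL2, the survival gene, fell 1.57-fold from 82 and 66 reads to 41 and 47 (adjusted p 0.00696, edgeR). This call was lost with DESeq2 (adjusted p 0.113) and in edgeR without shControl replicate 1 (log2 fold change -0.52) or shp63 replicate 1 (-0.53). Scaled by library totals alone VPS4B and ZCCHC2 were called lower (log2 fold changes -0.14 and -0.13) and KDSR was no longer called (0.06).

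**Figure D2:**
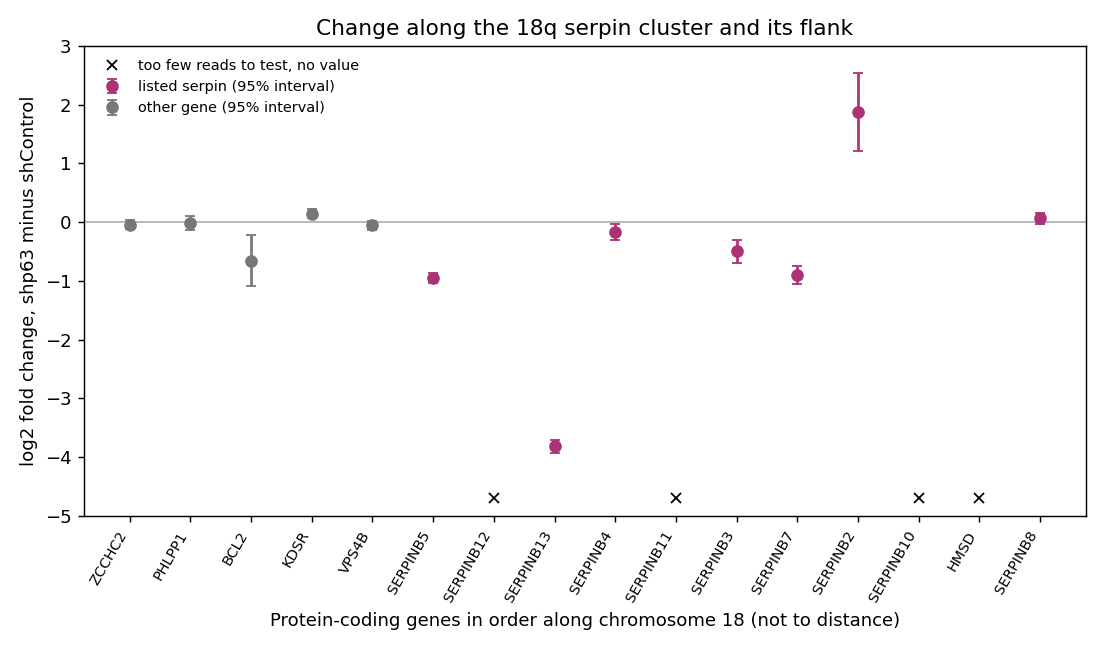
log2 fold change (shp63 minus shControl) of protein-coding genes in their order along chromosome 18, for the listed serpins (purple) and other genes (grey), with 95% intervals from the edgeR fit and crosses, without a value, for genes with too few reads. SERPINB13 at -3.81 and SERPINB2 at 1.87 lie in the same 543 kb as SERPINB8 at 0.07.

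Further genes of that arm on the list were mixed. PIGN and TNFRSF11A rose 1.23-fold and 1.15-fold (adjusted p 1.85e-06 and 0.0108, edgeR), the latter not called by DESeq2 (adjusted p 0.111), without shp63 replicate 1 (log2 fold change 0.13) or with library totals alone (0.12). RNF152 was not called, at 0.981 and 0.863 CPM (log2 fold change -0.19). CDH19, a cadherin, was scarce, with 5 and 5 reads in shControl and 31 and 30 in shp63 (6.38-fold, adjusted p 2.89e-06, edgeR). It passed the filter on low counts only through shp63, so its direction was set by the filter. CDH7 had 0 reads.

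SERPINB1, which protects cells from neutrophil elastase, cathepsin G and proteinase 3, is the clade B member outside the cluster. It lies on the short arm of chromosome 6 from 2832566 to 2842193 on the minus strand (GRCh37), and its 5′ window was 65.7% G and C. It had 8017 and 7596 reads in shControl and 13298 and 13565 in shp63. As CPM these were 145 and 141 against 256 and 271, both shp63 libraries above both controls. The level was 1.84-fold higher, with a log2 fold change of 0.88 (SE 0.032, 95% interval 0.81 to 0.95). Of 11 listed serine protease targets of the serpins 5 were tested, 4 higher and 1 lower. Those of SERPINB1 were near 0, with 2 or 3 reads per library for ELANE, 1 to 5 for PRTN3 and 0 for CTSG.

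The serpin genes beside SERPINB1 on chromosome 6 rose too. For SERPINB6 the increase was 1.37-fold, with 108 CPM in shControl and 149 in shp63 (SE 0.034 on the log2 scale, adjusted p 6.39e-11, edgeR). SERPINB9, the granzyme B inhibitor, rose by 0.37 on the log2 scale, with 30.3 CPM in shControl and 39.1 in shp63 (adjusted p 3.39e-08, edgeR). Of the other genes on the list for this region, RIPK1, BPHL, GMDS and NQO2 rose 1.38-fold, 1.40-fold, 1.22-fold and 1.09-fold, and TUBB2A and WRNIP1 fell 1.44-fold and 1.13-fold. MYLK4 was not called (3.98 and 4.32 CPM), and TUBB2B had 6 reads or fewer. NQO2 was not called by DESeq2 (log2 fold change 0.13), with library totals alone (0.04) or without shControl replicate 1 (0.10). The differences in size between SERPINB1 and its neighbours were not tested as such.

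Among the secreted serpins, SERPINF1 (pigment epithelium-derived factor, a non-inhibitory serpin that restrains blood vessel growth) was lower. The gene is on chromosome 17, plus strand, at positions 1665323 to 1680859 (GRCh37). It had 1049 and 1076 reads in shControl and 72 and 80 in shp63, or 18.9 and 20.02 CPM against 1.38 and 1.60 CPM. The groups were far apart, 13.1-fold lower in shp63 by their means (log2 fold change -3.71, SE 0.096, 95% interval -3.91 to -3.51). This interval overlaps that of SERPINB13. The 2 genes were the only members past 1 on the log2 scale downward, where 6.56% of all tested genes were called and past it.

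SERPINE2, or protease nexin, is a secreted inhibitor of thrombin and of PLAU and PLAT. It lies on chromosome 2 from 224839762 to 224904035 on the minus strand (GRCh37). It was scarce in shControl, with 107 and 98 reads, and had 257 and 204 in shp63. As CPM these were 1.93 and 1.82 against 4.94 and 4.07, without overlap and with more spread in shp63 (SD 0.616 against 0.0755). The level was 2.40-fold higher (log2 fold change 1.26, SE 0.13). SERPINE2 and SERPINB2 were the members past 1 on the log2 scale upward, where 9.17% of all tested genes were called and past it.

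Levels of different genes were compared as CPM per kilobase of the Ensembl canonical transcript (GENCODE, GRCh37), which need not be the authors' gene model. In shControl the order was SERPINB5 at 66.2 ± 0.354, SERPINB1 at 57.7 ± 0.938, SERPINB3 at 49.4 ± 6.51 and SERPINB13 at 36.4 ± 1.35 CPM per kb (SD, n = 2 each). SERPINF1 followed at 13.5 ± 0.539, SERPINB4 at 8.18 ± 0.375, SERPINB8 at 8.08 ± 0.118 and SERPINB7 at 7.47 ± 0.226, and SERPINE2 and SERPINB2 closed it at 0.843 ± 0.0339 and 0.106 ± 0.00231. The libraries of SERPINB4 and SERPINB8 overlapped, and those of every other pair of neighbours in this order did not. In shp63 SERPINB1 led at 106 ± 4.26 CPM per kb, ahead of SERPINB3 at 35.0 ± 0.587 and SERPINB5 at 34.5 ± 2.57, which overlapped. SERPINB8 was at 8.47 ± 0.109, SERPINB4 at 7.30 ± 0.345, SERPINB7 at 4.01 ± 0.508, SERPINB13 at 2.59 ± 0.116, SERPINE2 at 2.02 ± 0.277, SERPINF1 at 1.04 ± 0.104 and SERPINB2 at 0.391 ± 0.0538.

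The make-up of the 8 listed clade B transcripts differed accordingly. SERPINB6 and SERPINB9, clade B genes outside the list, are left out of these shares. SERPINB6, with a main transcript of 1315 bases, was at 108 CPM in shControl and 149 in shp63, and SERPINB9 at 30.3 and 39.1. Shares of the whole clade are thus smaller. Per kilobase, SERPINB1 was 24.3% and 25.2% of the sum over the 8 clade B members in shControl and 53.2% and 53.8% in shp63. SERPINB5 was 27.6% and 29.1% in shControl and 16.8% and 17.9% in shp63, and SERPINB13 was 15.5% and 15.6% in shControl and 1.295% and 1.32% in shp63. SERPINB3 held 22.5% and 19.8% in shControl and 18.3% and 17.1% in shp63. The summed level of these 8 was 583 and 556 CPM in shControl and 458 and 482 CPM in shp63 (ratio 0.825), while 35 SERPIN genes together held 1071 and 1043 CPM against 1073 and 1095 CPM (ratio 1.03).

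**Figure D3:**
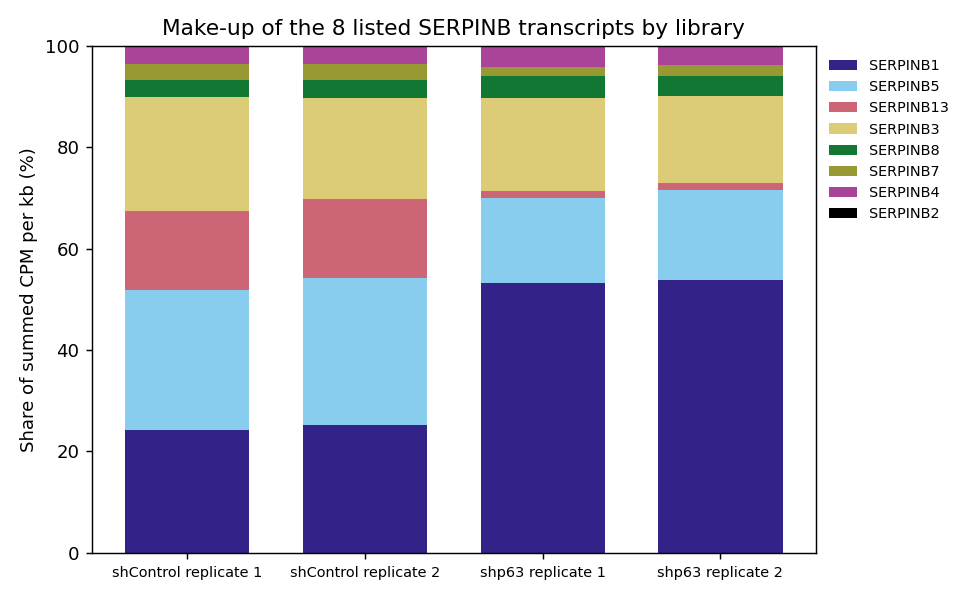
Share of each of the 8 listed clade B serpins in their summed CPM per kb of transcript, in percent, for each of the 4 libraries. SERPINB1 goes from 24.3% and 25.2% in shControl to 53.2% and 53.8% in shp63, and SERPINB13 shrinks to 1.295% and 1.32%.

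The other serpin genes mostly rose. Of 26 further family members listed, 11 were tested, of which 10 rose and 1 fell, while 7 had 0 reads in all libraries. The median log2 fold change of the tested ones was 1.35. SERPINA3, the antichymotrypsin of the acute phase response, rose 7.56-fold, with 4.27 ± 0.352 CPM in shControl and 32.3 ± 1.51 in shp63 (SD, n = 2 each; adjusted p 1.39e-19, edgeR). SERPINA1, the antitrypsin of blood plasma, rose 6.40-fold from 2.28 ± 0.30 to 14.6 ± 0.145 CPM. SERPINA5, the protein C inhibitor, rose 2.48-fold. SERPINF2, the plasmin inhibitor, fell 1.57-fold from 10.7 ± 0.608 to 6.82 ± 0.0575 CPM (adjusted p 1.49e-07, edgeR). In a test against a 1.5-fold change 7 of these 11 were called, all upward.

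Genes of plasminogen activation, which SERPINB2 and SERPINE2 restrain, moved both ways. Among 11 tested, 7 increased and 4 decreased, the median log2 fold change being 0.27, and 4 were called against a 1.5-fold change. Of those that increased, KLKB1 had 5 and 1 reads in shControl and 18 and 14 in shp63. It passed the filter on low counts only through shp63, and HPN (7 and 11 reads against 28 and 22) did so largely. PLAUR, the receptor that holds PLAU at the cell surface, rose 4.55-fold, with 13.7 ± 0.313 CPM in shControl and 62.4 ± 1.57 in shp63 (SD, n = 2 each; adjusted p 3.52e-21, edgeR). The activator gene PLAU rose 1.21-fold from 14.1 to 17.0 CPM, while PLAT fell 1.59-fold from 7.96 to 5.00 CPM. PLGRKT, a plasminogen receptor, rose 1.57-fold. LRP1, the endocytic receptor that clears serpin and protease complexes, fell 1.28-fold from 72.5 ± 9.25 to 56.7 ± 3.19 CPM, a call that was lost without shp63 replicate 1 (log2 fold change -0.30) or shp63 replicate 2 (-0.42). S100A10, which binds plasminogen with ANXA2, fell 1.10-fold. PLG itself had 0 reads.

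Cathepsins, the lysosomal proteases that include the targets of SERPINB3 and SERPINB13, rose nearly throughout. Among 13 tested, 12 increased and 1 decreased (median 0.77 on the log2 scale), and 8 were called against a 1.5-fold change. CTSL was at 229 ± 3.35 CPM in shControl and 831 ± 11.2 in shp63, a 3.63-fold increase (SD, n = 2 each; adjusted p 7.30e-22, edgeR), and CTSS rose 4.59-fold from 16.8 ± 0.836 to 77.3 ± 0.824 CPM. CTSA and CTSO rose 2.55-fold and 2.89-fold, and CTSK, a further target, was scarce at 1.62 and 2.65 CPM (1.64-fold higher). The gene that fell was CTSV, the squamous epithelial relative of CTSL, from 16.7 ± 0.456 to 11.4 ± 0.283 CPM (adjusted p 6.03e-08, edgeR).

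The cystatins, a separate family of cathepsin inhibitors, also rose except for 1 gene. Among 8 tested cystatins 7 increased, and the median change was 1.96 on the log2 scale, or 0.74 over the 5 left without the close paralogs CST2, CST4 and CST5. CST2, CST5 and CST7 had 7 or fewer reads in each shControl library and passed the filter on low counts only through shp63. Their direction was thus set by the filter, and CST7 remains among the 5. CST6, at 12.6 ± 1.36 CPM in shControl and 52.2 ± 1.92 in shp63 (SD, n = 2 each), rose 4.14-fold, CST3 rose 1.67-fold and CSTB 1.16-fold. CSTA, the cystatin of the squamous cell envelope, fell 1.89-fold from 58.9 ± 1.60 to 31.2 ± 0.487 CPM (adjusted p 5.46e-15, edgeR). The folds of those paralogs, between which reads may be split, are uncertain, such as that of CST4 with 23 and 10 reads in shControl and 225 and 222 in shp63.

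Serine proteases, many of them membrane-bound, and proprotein convertases rose in 19 of 21 tested genes, with none lower (median log2 fold change 1.07). HPN and TMPRSS11B, among those that rose, passed the filter on low counts largely through shp63. TMPRSS11B had 10 and 11 reads in shControl and 16 and 21 in shp63 (adjusted p 0.039, edgeR). FURIN, the target of SERPINB8, rose 2.40-fold and was at 123 ± 1.69 CPM in shControl and 296 ± 8.24 in shp63 (SD, n = 2 each; adjusted p 1.61e-19, edgeR). PRSS23, PRSS22 and PRSS8 rose 3.71-fold, 4.04-fold and 2.95-fold. TMPRSS11A was not called (log2 fold change 0.55). ST14, the epithelial protease matriptase, rose 2.10-fold from 409 to 857 CPM, and its inhibitors SPINT1 and SPINT2 rose 3.05-fold and 2.33-fold (adjusted p 2.46e-20 and 2.65e-18, edgeR). Of 11 tested inhibitors outside the serpin and cystatin families 7 rose and 3 fell. TFPI2, a Kunitz-type inhibitor, rose 9.92-fold from 50.8 ± 1.62 to 504 ± 20.03 CPM and A2M rose 4.96-fold, while RECK and CD109 fell 1.26-fold and 1.08-fold. RECK was not called without shp63 replicate 2 (log2 fold change -0.24), and CD109 not without shControl replicate 1 (-0.09).

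**Figure D4:**
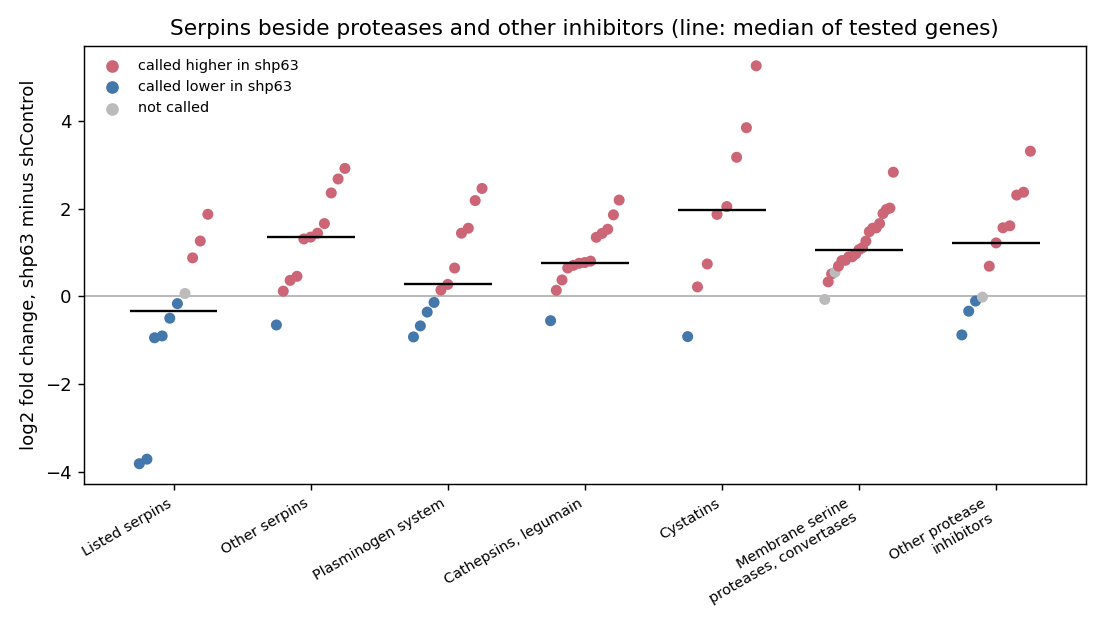
log2 fold change (shp63 minus shControl) of each tested gene in the listed serpins and in 6 related lists, with 1 point per gene coloured by its edgeR call and a line at each list's median. The medians are -0.33 for the listed serpins, 1.35 for other serpins, 0.27 for the plasminogen system, 0.77 for cathepsins and 1.96 for cystatins (0.74 without CST2, CST4 and CST5).

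Partners of the secreted members were listed too. PNPLA2, a lipase and a receptor for SERPINF1, was at 65.6 ± 4.27 CPM in shControl and 161 ± 11.9 in shp63, a 2.45-fold increase (SD, n = 2 each; adjusted p 1.55e-10, edgeR). VEGFA, the vessel growth factor that SERPINF1 opposes, increased 2.04-fold from 136 ± 4.59 CPM to 278 ± 19.2 (adjusted p 7.79e-12, edgeR). RPSA, a ribosomal protein that also serves as a laminin receptor and binds SERPINF1, fell 1.99-fold from 1014 to 510 CPM. SDC1 rose 1.28-fold. SDC4 rose 1.05-fold, a call that several alternatives did not make and that turned to -0.02 on the log2 scale with library totals alone. LRP6 was not called (47.8 and 47.3 CPM).

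The squamous label was checked against markers. KRT5 was at 757 ± 70.8 CPM, DSG3 at 130 ± 3.11 CPM and TP63 at 136 ± 0.798 CPM in shControl (SD, n = 2 each), while KRT14 was at 4.35 CPM and SOX2 had 14 and 11 reads. Of these 8 squamous basal markers 7 fell and 1, KRT6A, rose 1.32-fold, and their sum went from between 1046 and 1155 CPM to between 248.5 and 259 CPM. TP63, the targeted gene, is 1 of these 7 and is part of the sum (136 CPM in shControl, 30.6 in shp63). The sum of 10 glandular epithelial markers, led by KRT8 and KRT18, was 2792 to 2819 CPM in shControl and 6105 to 6352 CPM in shp63, with SFTPC at 1 read or none. Of the 8 tested, KRT8, KRT18, EPCAM and CDH1 rose, the lung epithelial factor NKX2-1 fell 1.57-fold and the ciliated cell factor FOXJ1 fell 3.46-fold, and 2 were not called. SOX2, at 1 and 3 reads in shp63, and FOXJ1, at 5 and 7, passed the filter on low counts only through shControl. The part of the marker shifts in the serpin values was not tested. SERPINB1 and SERPINB2 are also made by myeloid cells, and of 6 tested leukocyte markers 4 rose, 1 fell and 1, FCER1G, was not called. Of those that rose, LYZ had 1 read in each shControl library and passed the filter on low counts only through shp63 (33 and 21 reads). CD14 rose from 6.17 to 43.9 CPM and CD68 from 6.62 to 31.6 CPM, while ITGAM, a myeloid integrin, fell 2.53-fold from 0.695 to 0.274 CPM. The sum of the 11 leukocyte markers was 15.05 to 16.4 CPM in shControl and 81.8 to 85.4 CPM in shp63, while the pan-leukocyte gene PTPRC had 4 to 8 reads and TYROBP and MS4A1 had 0. SERPINF1 and SERPINE2 are made by fibroblasts, whose markers DCN (0 reads), LUM (1 read or none), PDGFRA (2 or fewer) and VIM (7 or fewer) were at or near 0. The fibroblast sum of 97.3 to 102 CPM in shControl and 67.2 to 75.4 CPM in shp63 was mostly COL1A1. Of the mesothelial markers MSLN was at 132 CPM in shControl, near DSG3 and TP63, and UPK3B at 215 CPM, above both. MSLN and UPK3B rose 2.51-fold and 1.40-fold, while WT1, CALB2, LRRN4 and ITLN1 had 8 reads or fewer. The mesothelial sum was 334 to 361 CPM in shControl and 630 to 636 CPM in shp63. Endothelial markers summed to 59.9 to 64.9 CPM in shControl and 190 to 191 CPM in shp63, nearly all CDH5, with KDR, ERG and CLDN5 at 1 read or none. Of the 3 tested, CDH5 and PECAM1 rose 3.31-fold and 1.81-fold and VWF fell 3.57-fold, with 267 and 242 reads in shControl and 62 and 71 in shp63. Of 4 neuroendocrine markers CHGA fell from 1.46 to 0.235 CPM, SYP was not called, and INSM1 had 0 reads.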

How the data were processed

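Per the series' design text the authors aligned reads to GRCh37 (hg19) with TopHat2 and counted them per gene with HTSeq; versions were 2.0.13 and 0.6.1, per the submitters' processing notes. Gene annotation and strand setting are not given in the sources used here. The deposited file holds raw read counts, whole numbers that the authors did not scale. SERPINB3 overlaps SERPINB11 on the opposite strand and SERPINB8 overlaps HMSD on the same strand; the partners had 0 or 1 reads.

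The test was that of edgeR 4.0.16 (R 4.3.3): TMM factors (0.966 to 1.03), filterByExpr (minimum count 10, minimum total 15), and a robust quasi-likelihood model with group as the only term, fitted to all 4 libraries and 14901 genes. Calls have a Benjamini-Hochberg adjusted p under 0.05 over all these genes. The labels give 2 replicates a group and do not say whether these are independent cultures. The p-values rest on the spread between replicates, mostly as pooled across genes (2 residual degrees of freedom against a median of 18.8 from the pooling). CPM use the TMM factors, and each SE is the log2 fold change over the root of F. Replicates differed by more than sampling noise (chi-square 3.43 and 3.74 per degree of freedom) and were kept apart. On simulated counts for this comparison, in a fit of 14746 genes, calls were made for 57 of 67 genes (85.1%) given a log2 change of 0.585. They were made for 65 of 67 (97.0%) given 1 and for 64 of 66 (97.0%) given 2. Of 14548 unchanged genes 26 were called as well. Only 200 genes were changed in the simulation, while 74.0% of tested genes were called in the data, so these rates need not hold there.

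Promoter motifs were searched on both strands of RefSeq windows. The members and lists were chosen with earlier results of these data known. Beside the members, the rule named every listed neighbour and up to 4 genes per list and direction, of smallest adjusted p and at least 5 CPM on average. CTSK, CST2, CST4, CST5, CST7, KLKB1, HPN and TMPRSS11B were named outside this rule, after their values were seen. So were the scarce markers KRT14, SOX2, CHGA, ITGAM, LYZ, VWF, PECAM1, NKX2-1 and FOXJ1, and genes at or near 0. Alternatives were RLE size factors, library totals, 2 other filters, DESeq2 1.42.0, limma-voom (limma 3.58.1), a test against a 1.5-fold change, a replicate block, each library left out, SERPINB3 and SERPINB4 summed, and, added after seeing the data, the cystatin median without close paralogs.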

Additional observations from a re-analysis of the deposited data

How the results depend on the processing

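Over 12 to 14 alternatives per serpin, SERPINB13, SERPINF1, SERPINB5, SERPINB7, SERPINB1, SERPINB2 and SERPINE2 kept their direction and call, with log2 fold changes of -3.90 to -3.76, -3.81 to -3.61, -1.03 to -0.87, -1.03 to -0.77, 0.79 to 0.92, 1.73 to 2.01 and 1.12 to 1.39. SERPINB3 lost its call in 3 and SERPINB4 in 4 alternatives, 1 of them for each the test against a 1.5-fold change; the summed copies moved SERPINB4 from -0.16 to -0.44. That test called 3385 genes in place of 11033, 7 of 11 other serpins, 8 of 13 cathepsins and 4 of 11 plasminogen genes. Library totals alone shifted log2 fold changes by a median of -0.09, called 4658 genes higher and 6591 lower in place of 5499 and 5534, and turned SERPINB8 to -0.020 and SDC4 to -0.016. The uncalled PHLPP1 and MYLK4 ranged from -0.072 to 0.042 and from -0.052 to 0.27 when each library was left out; PHLPP1 turned to 0.042 and 0.028 without shControl or shp63 replicate 1, MYLK4 to -0.052 without shp63 replicate 2. The causes were not tested. Leaving out each library in turn, with the lone library of its group taken to vary like the other group, gave 7 to 9 members, 11 to 13 other serpins, 13 cathepsins, 10 or 11 plasminogen genes and 10353 to 10548 genes in all. With the replicate number as a block 10858 genes were called, and with the numbers crossed between the groups, chosen after seeing the data because same-numbered libraries deviated in opposite directions (correlation -0.24 across genes), 11387; both called 9 serpins. Depth limits SERPINB2, at 11 to 41 reads.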
